A study of Mus musculus with 44 samples.

Results

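The regions described here are 1498 stretches of accessible DNA that were present in every unstimulated control library of mouse cortical neurons cultured for 7 days in vitro (DIV7) and absent from both unstimulated control libraries of neurons cultured for 18 days in vitro (DIV18). They were found by ATAC-seq, in which a transposase cuts and tags the DNA it can reach, from 1 deposited list of accessible intervals per library. In each of 8 libraries the 75000 autosomal intervals with the highest −log10 p of the authors' peak caller were kept, and the 8 sets were merged into 136857 regions. Of these, 39155 were overlapped by a kept interval of all 6 DIV7 libraries, and 1498 of the 39155 were overlapped by no interval, kept or not, of the DIV18 lists. They are called DIV7-only regions here, and the remaining 37657 the other held regions. The values of those 8 libraries chose the regions, so they are given as a description with no test.

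All neurons came from the cortex of E16.5 mouse embryos and were silenced overnight with 1 µM tetrodotoxin and 100 µM D-AP5, which block sodium channels and NMDA receptors. The wells also held DNase while they were treated. Depolarized wells then received 50 mM KCl. The DIV18 neurons carried a Non-targeting guide RNA, or were Smarcc2 knockouts with an empty vector or with wild-type, S586E or S586A Smarcc2 put back, each with or without KCl for 30 min. The DIV7 neurons formed an Arid2 experiment (Arid2KO or Non-targeting guide RNA, with or without KCl for 30 min) and a drug experiment on WT neurons. In the drug experiment, 100 nM FHT1015, an inhibitor of the BAF ATPases, or 0.1% DMSO was given for 10 or 30 min, with or without KCl. The 44 libraries made 22 groups of 2. Embryos are the replicates by the labels, which do not say which embryo gave which library, so the p-values measure the spread between libraries. The 6 DIV7 libraries that chose the regions were the Non-targeting pair and the DMSO pairs of 10 and 30 min, and the 2 DIV18 libraries were the Non-targeting pair.

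Most accessible DNA outside gene starts is thought to be enhancer sequence, where transcription factors displace nucleosomes, and the set of open enhancers changes as a neuron matures. The BAF complex, a chromatin remodeler driven by the ATPases Smarca4 and Smarca2, slides or ejects nucleosomes and keeps many enhancers open. Membrane depolarization with KCl lets calcium into the neuron and induces genes of the activity response.

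Few DIV7-only regions lay at a known start of transcription, so sequence could be printed for only a small number of them. A window of 300 bases around an annotated start (RefSeq, build GRCm38.p6, the same coordinates as mm10) overlapped 8 DIV7-only regions (0.534%) and 9871 other held regions (26.2%). The other held regions were stronger at DIV7, and the sets were not matched for strength. The 3 windows that lay wholly inside a DIV7-only region are shown. They are the sequence that was accessible at DIV7 and not listed in the unstimulated Non-targeting DIV18 libraries. They belong to En1, a homeodomain factor that patterns the midbrain and hindbrain (chr1:120602237-120602536, plus strand), and to 2 loci annotated as long noncoding RNAs in RefSeq, Gm15866 inside C1qtnf7 (chr5:43573337-43573636, minus strand) and A530065N20Rik (chr13:60029461-60029760, plus strand). Capitals mark matches, on either strand, to TGANTCA (the AP-1 motif), TAATTA (a homeodomain core), CAGATG (an E-box) and CCAAT.
En1 window: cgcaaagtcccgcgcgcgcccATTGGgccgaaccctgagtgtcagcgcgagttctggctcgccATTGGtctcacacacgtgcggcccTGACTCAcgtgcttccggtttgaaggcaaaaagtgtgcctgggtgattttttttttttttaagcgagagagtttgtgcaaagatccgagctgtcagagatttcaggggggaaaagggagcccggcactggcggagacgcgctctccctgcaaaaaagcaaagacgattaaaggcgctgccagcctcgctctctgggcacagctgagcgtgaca
Gm15866 window: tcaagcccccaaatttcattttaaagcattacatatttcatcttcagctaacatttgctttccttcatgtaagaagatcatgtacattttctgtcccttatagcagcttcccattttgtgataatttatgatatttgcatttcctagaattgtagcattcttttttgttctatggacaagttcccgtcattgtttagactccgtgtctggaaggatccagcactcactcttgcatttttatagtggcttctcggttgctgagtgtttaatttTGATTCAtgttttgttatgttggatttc
A530065N20Rik window: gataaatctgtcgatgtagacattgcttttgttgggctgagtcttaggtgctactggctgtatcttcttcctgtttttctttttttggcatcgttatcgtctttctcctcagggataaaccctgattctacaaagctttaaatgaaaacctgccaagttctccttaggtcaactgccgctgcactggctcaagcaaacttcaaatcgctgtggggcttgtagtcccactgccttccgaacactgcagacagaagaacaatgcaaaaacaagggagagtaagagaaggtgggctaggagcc

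The En1 window held 1 AP-1 match and 2 CCAAT matches, these written as ATTGG because they lie on the other strand, and the Gm15866 window held 1 AP-1 match. Over all 31396 autosomal promoter windows, 7.84% held TGANTCA, 5.27% TAATTA, 17.2% CAGATG and 37.3% CCAAT. A match describes the letters and does not show that a factor was bound. The GC content was 57% in the En1 window, 35.3% in the Gm15866 window and 45.7% in the A530065N20Rik window, against a median of 53% over all windows.

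One DIV7-only region, inside Ttc28 (chr5:111003240-111004335), held the hairpin of Mir701 (chr5:111004144-111004252, plus strand), while 121 other held regions held a hairpin. Its 2 mature forms are shown with the seed, bases 2 to 8, in capitals.
mmu-miR-701-5p: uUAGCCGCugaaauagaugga
mmu-miR-701-3p: uAUCUAUUaaagaggcuagc

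The Ttc28 region that holds the hairpin ranked 64657 and 30528 in the Non-targeting DIV7 libraries and 59366, 66037, 68782 and 54712 in the DMSO libraries. It was therefore near the end of the kept lists in 5 of the 6 libraries. No DIV18 list of the series had an interval there.

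Most DIV7-only regions were of middle strength in the DIV7 lists. An interval's rank, with 1 as the strongest, is used throughout, and a rank score, log2(133009/rank), where 133009 is the number of intervals in the shortest list, serves as the scale for differences. A rank score is 0 where a list has no interval or a rank beyond 133009, and a difference of 1 means that the rank is divided by 2. Averaged over the 6 DIV7 libraries, the mean rank of the DIV7-only regions was 40756 at the median, with quartiles of 32028 and 48633, against a median of 21722 for the other held regions. The SD of the 6 rank scores of a region was 0.342 at the median, and the 5th and 95th percentiles were 0.146 and 0.714. Ranks are relative within a list, so a region can change rank because others did.

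The edges of the rule were not sharp. The worst of the 6 ranks was over 70000 in 227 DIV7-only regions. Another 1199 regions that neither unstimulated Non-targeting DIV18 list held were kept by 5 of the 6 DIV7 libraries. They ranked 75009 or beyond in the sixth or had no interval there. A further 1565 regions kept by all 6 libraries had an interval in 1 of the 2 DIV18 lists, at a median rank of 165782, and 36092 had one in both.

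The strongest DIV7-only regions stood far up the lists of all 6 libraries. The highest of all lay inside Ccdc192 and ranked between 5674 and 8772. The next lay inside Sel1l2 (chr2:140325426-140326434), with ranks of 7148 to 13007 and no interval in any DIV18 list. A region inside Zfp536 (chr7:37599490-37601577), which encodes a zinc finger repressor of neuronal differentiation, ranked 4640 and 4629 in the Non-targeting libraries and 14077 to 19562 in the DMSO libraries. A region 51.7 kb from Slc1a3 (chr15:8581044-8582408), the glial glutamate transporter gene, ranked 5548 and 5682 in the Non-targeting libraries and 15340 to 17791 in the DMSO libraries. In both, the Non-targeting pair ranked above every DMSO library. The other 6 of the 10 highest lay nearest to Pdha2, Lama2 (a laminin chain), Kif6 and Kif2b (kinesin motors), Sptlc3 (sphingolipid synthesis) and Ikzf5 (a zinc finger factor).

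DIV7-only regions lay away from gene ends and often far from any gene. Only 24 (1.60%) lay at a gene end, which means within 1 kb of the start or end of a protein-coding gene, 616 (41.1%) lay inside a gene, 393 (26.2%) outside but within 100 kb, and 465 (31.0%) more than 100 kb from any gene. Among the other held regions these shares were 30.5%, 37.0%, 23.2% and 9.38%. A mirror set of 4686 regions, kept by both DIV18 libraries and absent from the 6 DIV7 lists, had 4.40%, 59.2%, 26.1% and 10.4%. Both one-sided sets held few gene ends, and of the 3 sets the DIV7-only one had the highest share over 100 kb. The sets were not matched for strength, and position varied with rank among the other held regions. Of 5313 with mean ranks from 40000 to 55000, 4921 lay away from gene ends and 830 over 100 kb from a gene. In that class 632 of 641 DIV7-only regions lay away from gene ends. The median distance to the nearest gene, over regions outside genes, was 120 kb for the 858 DIV7-only regions and 36.2 kb for the other held regions and the mirror set. Their median width was 686 bp, against 1163 bp for the other held regions and 527 bp for the mirror set.

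**Figure D1:**
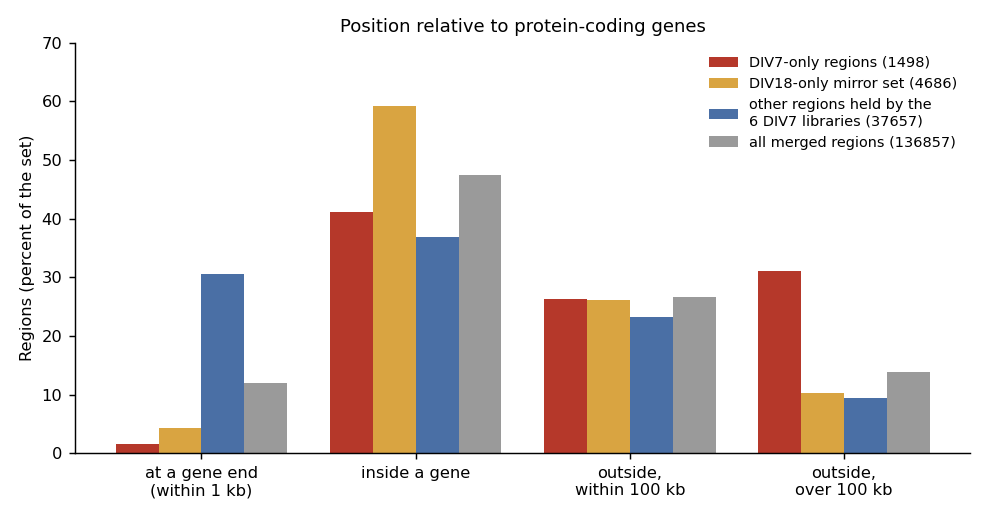
Share of regions (percent of the set) at a gene end, inside a gene, outside within 100 kb and outside over 100 kb, for the DIV7-only regions, the DIV18-only mirror set, the other held regions and all merged regions. Of the DIV7-only regions 1.60% lay at a gene end and 31.0% lay over 100 kb from a gene, against 30.5% and 9.38% of the other held regions. The other held regions were stronger at DIV7 and not matched for strength.

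The 24 regions at gene ends were led by Syt16 (a synaptotagmin), Gk5, Tac1 (the precursor of substance P), Adgrg5, Gm4802 and Aqp6 (a water channel), with mean ranks of 22438, 23850, 26050, 27006, 27832 and 28375. The Tac1 region (chr6:7562125-7563040) ranked 48045 and 42126 in the Non-targeting libraries and 16182 to 22850 in the DMSO libraries, so it was stronger in each DMSO library. En1 and Hoxb8, homeodomain genes of posterior identity, were among the weakest at a gene end, with mean ranks of 52212 and 53906. Igfbpl1, an insulin-like growth factor binding protein gene, and the zinc finger gene Tshz3 were also among the 24.

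The DIV7-only regions were spread thinly over 1184 nearest genes, of which 948 had 1 region, 179 had 2, 44 had 3, 8 had 4, 2 had 5 and 3 had 6. Cdh20, Ctnna3 and Auts2 had 6 each. The 6 regions of Cdh20, a cadherin gene, all lay outside it, 108 to 1692 kb away, in a stretch of chromosome 1 where 18 of its 52 regions were held by the 6 DIV7 libraries and none was in the DIV18-only set. Of the 6 regions of Ctnna3, an alpha-catenin gene 1574 kb long, 4 lay inside it, and of those of Auts2, a neurodevelopmental gene 1106 kb long, 5 did. Gpc5, which encodes a heparan sulfate proteoglycan, and Dab1, the adaptor of reelin signalling, had 5 regions each. Malrd1, Hs3st1, Immp2l, Ptpru and Ttc28 had 4 each. By chromosome, the share of the regions held at DIV7 that were DIV7-only ran from 2.22% on chromosome 11 to 5.39% on chromosome 1.

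Most of the gene lists had more DIV7-only regions for their number of held regions than the 3.83% of all regions held at DIV7. Axon guidance and newborn neurons were among them, and the highest share was that of vascular and meningeal cells. The 3.83% was not matched for position relative to genes, which differed between DIV7-only and other held regions. The counts are given as a description, since the lists were set with earlier results of these data known. Regions nearest to axon guidance genes gave 25 of 302 (8.28%) over 16 genes, and those of immature and migrating neurons 11 of 130 (8.46%) over 7 genes. Regions of synapse and excitability genes gave 16 of 315 (5.08%), those of cortical layer factors 9 of 180 (5.00%) and those of neural progenitors 5 of 96 (5.21%). Regions of early activity genes gave 2 of 139 (1.44%), fetal and temporal regulators 4 of 176 (2.27%), BAF subunits 3 of 105 (2.86%, all of Arid1b), and the housekeeping control 0 of 33. Lists of other cell types gave 4 of 67 for inhibitory neurons (5.97%), 3 of 37 for Cajal-Retzius cells (8.11%), 5 of 34 for vascular and meningeal cells (14.7%), 2 of 27 for microglia (7.41%), 2 of 52 for astrocytes (3.85%) and 0 of 30 for the oligodendrocyte lineage.

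Among axon guidance genes, 6 had 2 or more DIV7-only regions, namely Robo2 (4), Epha7 (3), and Slit2, Ephb1, Epha3 and Epha6 (2 each). Slit2 is a secreted repellent, Robo2 its receptor, and the Eph genes encode receptors of the ephrins. In the newborn-neuron list Sox11, a factor that promotes neuronal differentiation, had 3, and Gap43, a growth cone protein, and Neurod6, a factor of excitatory neurons, had 2 each. In the synapse list Nrxn3 had 3, and Gria1, Nlgn1 and Dlg2 had 2 each: these encode a neurexin, an AMPA receptor subunit, a neuroligin and a postsynaptic scaffold. Reln, Sox5, Adarb2 and Rgs5 had 2 each in their lists.

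The next question was whether the DIV7-only regions were absent from the rest of the DIV18 neurons. In 807 of them (53.9%) none of the 18 DIV18 lists that the rule did not use had an interval, whatever the genotype or stimulus. In the other 691 (46.1%) at least 1 list had one: 208 regions in 1 list, 110 in 2, 179 in 3 to 5, 124 in 6 to 10 and 70 in 11 to 18. Those intervals were weak. Only 67 regions (4.47%) had one among the top 75000 of any of the 18 lists, and the median rank where present ran from 117098 to 194943 over the libraries. A single list had an interval in 90 to 252 of the regions (6.01% to 16.8%) and a top 75000 interval in 0% to 1.87%. The DIV18 lists, the Non-targeting unstimulated pair included, had an interval in 89.8% to 99.1% of the other held regions. They kept 77.1% to 83.3% of the other held regions in their top 75000.

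The 4 regions with an interval in all 18 of those lists are named because they go most against their label. They lay near Ano5 (chr7:51434935-51435192), Irf8 (chr8:120800382-120800994) and Rmi2 (chr16:10873492-10874130) and inside Ccdc192, with best ranks of 35032, 66352, 59573 and 46494 at DIV18. The Ccdc192 region, the strongest of all at DIV7, was thus weaker but listed in each DIV18 library except the unstimulated Non-targeting pair.

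Depolarized Non-targeting neurons give the age comparison in libraries the rule did not use. At DIV18 the 2 lists had an interval in 167 and 229 of the DIV7-only regions and a top interval in 10 and 10, against 1462 and 1461 and a top interval in 1304 and 1288 at DIV7. The groups were far apart in every library. Neither DIV18 list had an interval in 1227 regions, 1 list did in 146 and both in 125. The fit with limma, DIV18 minus DIV7, tested 1422 of the 1498 regions, which had passed a filter on low values mostly through the DIV7 libraries. It called 0 of them higher and 1234 lower, with a median difference of −1.80 in rank score, where 29.3% of all regions tested were called higher and 19.9% lower (49.2% in either direction). This count is no support for the difference, because the regions were chosen by the same contrast in other libraries.

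The 3 largest age differences were at Zfp536, Eea1 and Slc1a3. In depolarized neurons the Zfp536 region ranked 166255 in 1 DIV18 list and had no interval in the other, against ranks of 4551 and 3312 at DIV7, a difference of −5.10 (n = 2 each). The region 71.8 kb from Eea1, an endosome tethering gene, had no interval in either DIV18 list and ranked 5595 and 6065 at DIV7 (−4.51). The Slc1a3 region had none at DIV18 and ranked 5253 and 6893 at DIV7 (−4.47). These are the values of regions that were among the strongest at DIV7. In all 3 both DIV18 scores were 0, the floor, so each difference only restates the DIV7 score. Its direction was set by the choice of regions. Without either depolarized DIV7 library, limma called 87 (without replicate 1) or 86 (without replicate 2) of the regions in place of 1234, at median differences of −1.72 and −1.75. With list length as a covariate it called 0, at a median difference of −1.86. Both kinds of fit left fewer residual degrees of freedom than the main fit. Their counts can therefore fall with little change in the differences.

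**Figure D2:**
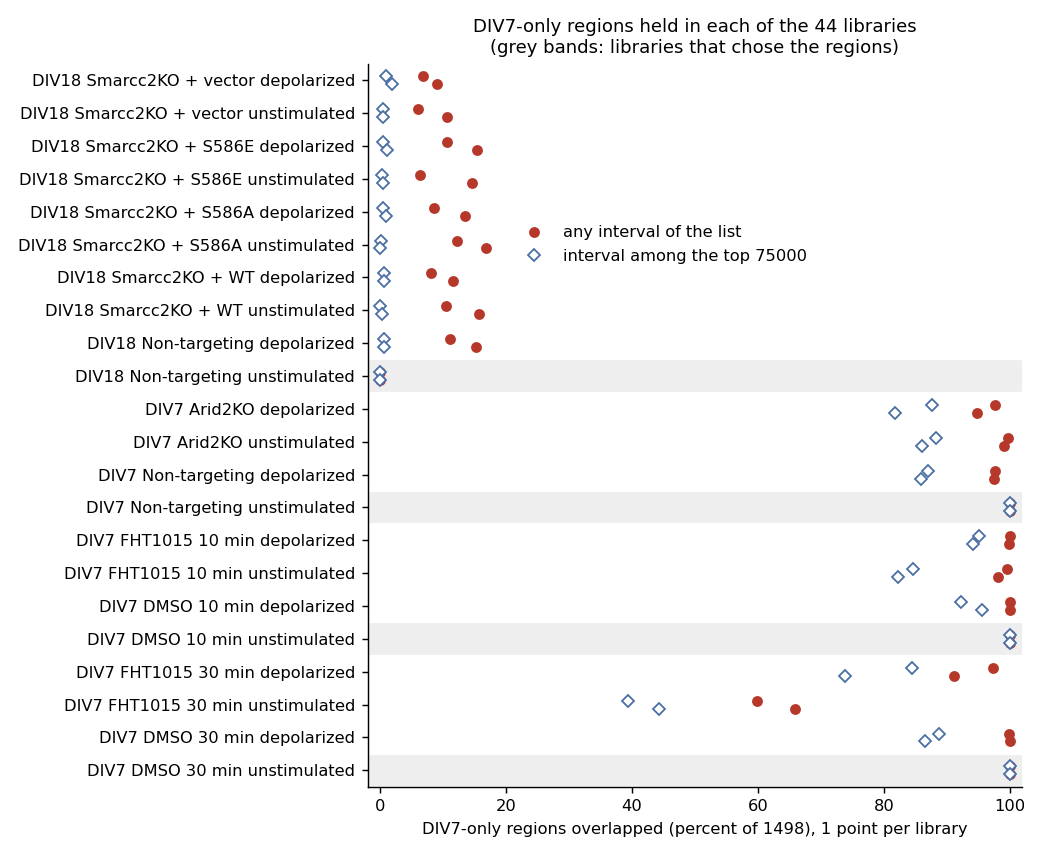
Share of the 1498 DIV7-only regions (percent) overlapped by any interval (filled circles) or by a top 75000 interval (open diamonds) in each of the 44 libraries, 2 per group, with grey bands for the libraries that chose the regions. The DIV18 libraries outside the grey band lie at 6.01% to 16.8% for any interval, and the 2 unstimulated libraries given FHT1015 for 30 min stand apart from the other DIV7 libraries at 59.8% and 65.9%.

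Age cannot be told apart from experiment in these data, since the DIV18 and DIV7 libraries come from separate experiments. The DIV18 unstimulated Non-targeting lists were longer (229766 and 261710 intervals) than the DIV7 Non-targeting ones (184970 and 178616), at background levels, a rough guide to depth in the units of the authors' fold enrichment, of 1.51 and 2.23 against 1.69 and 1.66, while the DIV7 DMSO lists had 240823 to 276666 intervals at 5.51 to 8.29. Marker genes of other cell types were read as the number of genes with a top interval at a gene end and the summed rank score of those gene ends. Counts were lower at DIV18 than in both DIV7 experiments for inhibitory neurons, Cajal-Retzius cells and vascular and meningeal cells, while for the oligodendrocyte lineage, microglia and astrocytes the DIV18 sums were near those of the Non-targeting DIV7 libraries and below those of the DMSO libraries. For inhibitory neurons, 9 to 10 of 21 genes had one at DIV18, against 15 to 16 in DIV7 Non-targeting and 17 in DIV7 DMSO libraries, with sums of 18.0 to 19.7 against 50.0 to 56.0 and 49.7 to 53.5, and Nkx2-1 and Sst had none in any of these libraries. For Cajal-Retzius cells the counts were 3 to 5 of 12 against 7 to 8 and 9 to 12, with sums of 6.71 to 9.60 against 23.1 and 35.4 to 39.6. For the oligodendrocyte lineage they were 6 to 7 of 15 against 6 and 12 (sums 14.2 to 19.4 against 15.4 and 50.2 to 54.6), with Mag and Mobp at 0. For vascular and meningeal cells they were 2 to 3 of 15 against 4 to 6 and 7 to 8 (sums 4.40 to 4.78 against 8.86 to 10.3 and 15.3 to 16.4), with Cdh5, Col1a2, Lum, Pecam1, Rgs5 and Tek at 0. For microglia they were 4 to 5 of 15 against 4 to 5 and 5 to 6 (sums 10.1 to 11.6 against 7.96 to 10.2 and 14.9 to 17.0), with Csf1r, Cx3cr1 and 7 others at 0. For astrocytes they were 12 to 13 of 16 against 13 to 14 and 13 (sums up to 47.6 against 43.4 to 44.3 and 59.5 to 63.2). Sums were also lower at DIV18 than in both DIV7 experiments for other lists. For immature and migrating neurons they were 68.8 to 74.7 against 118 to 122 and 110 to 113. The DIV18 sums were also lowest for axon guidance, synapse and excitability, cortical layer factors, fetal and temporal regulators and neural progenitors. For early activity genes, BAF subunits and the housekeeping control they overlapped those of a DIV7 experiment. The part of cell makeup in the absence of these regions at DIV18 was not tested, and fewer cells of a type and less access per cell cannot be told apart in bulk libraries.

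Within DIV7, most of the regions were listed under most treatments. Of the 18 DIV7 libraries that the rule did not use, all had an interval in 736 of the regions (49.1%) and all had a top interval in 358 (23.9%). Arid2KO neurons, given guides against a PBAF subunit, had an interval in 1493 and 1484 when unstimulated and in 1463 and 1421 after KCl. The accessibility data do not check the knockout itself. The libraries that stood apart were the unstimulated neurons given FHT1015 for 30 min, with 896 and 987 regions (59.8% and 65.9%).

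A treatment of 30 min with FHT1015 in silenced neurons went with the loss or a lower rank of many of the DIV7-only regions. In neither of the 2 lists was there an interval in 430 of them (28.7%), against 2883 of the other held regions (7.66%). One list had an interval in 253 and both in 815, and both kept 520 in their top 75000. At 10 min most were still listed: of the 430, 400 had an interval in both unstimulated FHT1015 lists of 10 min. Most were also listed in depolarized wells: 329 of the 430 (76.5%) had one in both lists of FHT1015 with KCl for 30 min, and 429 in both lists of DMSO with KCl. The DMSO libraries on the other side of this contrast chose the regions, so that a part of the difference is fixed by the rule.

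The other held regions were kept by the same 6 libraries, so regions in the same class of mean rank in those libraries can be set side by side. Strength was not matched within a class. The best mean rank was 6630 over all DIV7-only regions and 1 over all other held regions. Away from gene ends and among regions with a mean rank up to 25000, 81.6% of 136 DIV7-only regions were in the top 75000 of the FHT1015 30 min unstimulated lists, against 91.8% of 11347 other held regions. The shares were 53.6% against 65.8% for mean ranks from 25000 to 40000, 26.7% against 45.4% to 55000, and 19.6% against 40.8% to 75000. Other held regions over 100 kb from a gene had 89.8%, 62.3%, 36.6% and 34.6%, so they too lay above the DIV7-only regions in each of the 4 rank classes. With KCl and FHT1015 for 30 min the shares were close, at 98.2% against 98.0%, 91.1% against 85.3%, 69.5% against 65.8%, and 54.5% against 54.9%. With FHT1015 for 10 min and no KCl they were 100% against 99.9%, 96.4% against 95.4%, 74.8% against 77.2% and 53.1% against 62.5%. The gap was thus widest in silenced neurons after 30 min, in both libraries. These shares are descriptions over regions and were not tested.

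**Figure D3:**
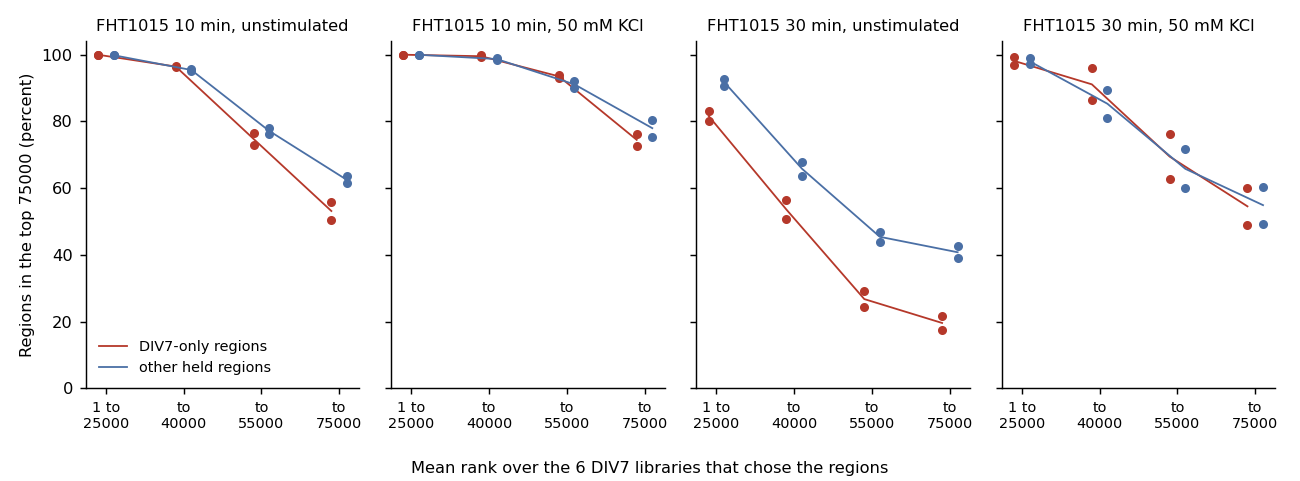
Share of regions (percent) kept in the top 75000 of the FHT1015 lists, by mean rank in the 6 DIV7 libraries that chose the regions, for DIV7-only regions (red) and other held regions (blue) away from gene ends; points are the 2 libraries and lines their mean. In unstimulated neurons after 30 min the DIV7-only regions lie below the other held regions in each class, from 81.6% against 91.8% to 19.6% against 40.8%.

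The limma fit of FHT1015 minus DMSO in unstimulated neurons at 30 min called 50 of the DIV7-only regions higher and 1129 lower, at a median difference of −1.10, with 19.9% of all regions tested called higher and 41.8% lower (61.7% in either direction). Nothing is read from that count. A set that the DMSO libraries did not choose held 3856 regions kept by both Non-targeting DIV7 libraries. They were absent from the unstimulated Non-targeting DIV18 lists. The set gave 121 higher and 1818 lower of 3401 tested, at a median difference of −0.58, against −0.29 over all regions. Away from gene ends the set had 53.7% called lower at a median of −0.58, close to the other held regions, with 54.4% at a median of −0.57. No DMSO library had to keep the regions of this set, so it was not matched to the other held regions for strength. A score near the floor limits how far a region can fall. At 10 min that set gave 115 higher and 579 lower at a median of −0.16, with 12.2% and 19.9% of all regions called higher and lower (32.2% in either direction), and the DIV7-only regions 50 and 260. The FHT1015 lists of 30 min were short, with 143439 and 158222 intervals against 276666 and 240823 for DMSO, at background levels of 4.39 and 6.04 against 7.44 and 5.51. The depolarized Arid2KO libraries, with 150222 and 133009 intervals, had an interval in 97.7% and 94.9% of the regions. They come from another experiment, at background levels of 1.44 and 1.42, so they do not test the part of list length. With list length as a covariate, 48 of the DIV7-only regions were called in place of 1179, and list length and FHT1015 cannot be told apart within these 4 libraries.

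KCl under FHT1015 is a contrast that neither side of the rule used, and at 30 min many DIV7-only regions rose. FHT1015 with KCl had an interval in 1458 and 1365 of them and FHT1015 without KCl in 896 and 987, so the groups did not overlap. Nor did the groups overlap for the other held regions, of which 98.8% and 95.9% had an interval with KCl and 87.9% and 90.7% without. Limma, fitted on 12 drug libraries outside the rule, called 759 of the 1498 higher and 14 lower at an adjusted p under 0.05, where 15.9% of all 102921 regions tested were called higher and 8.7% lower (24.6% in either direction). The median difference was 0.70 for the DIV7-only regions and 0.09 for the other held regions. Away from gene ends, 50.9% of the DIV7-only regions were called higher and 0.882% lower, against 29.0% and 5.75% of the other held regions. These 2 sets were not matched for strength, with mean ranks of 40756 and 21722 at the median. Of 3189 tested regions away from gene ends in the set kept by the Non-targeting libraries, 31.0% were called higher and 1.32% lower. The share called higher in that set was thus near that of the other held regions, to which it was not matched for strength either. By position, 52.1% of the DIV7-only regions inside genes, 49.9% of those within 100 kb, 50.1% of those farther and 37.5% of the 24 at gene ends were called higher, and the difference between positions was not tested. In a fit of the 4 libraries alone 455 of the 1498 were called in place of 773. The lists had 178688 and 153003 intervals with KCl against 143439 and 158222 without, at background levels of 5.54 and 2.93 against 4.39 and 6.04.

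The largest rises were at Fat1, Fat4 and Ccdc62. Fat1 and Fat4 encode giant protocadherins of the Fat family, which act in cell adhesion and tissue polarity. The Fat1 region (chr8:44529637-44530127, 403 kb from the gene) ranked 15505 and 16415 with FHT1015 and KCl and had no interval with FHT1015 alone at 30 min. It rose by 3.06 ± 0.13 in rank score (SE of the fit, n = 2 each, limma adjusted p = 2.58e-06). With DMSO it ranked 24756 and 24290 after KCl and 28371 and 35306 without. The region was therefore missing from the silenced FHT1015 wells of 30 min and listed in all the other DIV7 wells. The Fat4 region (chr3:38735435-38736115, 149 kb from the gene) ranked 21656 and 21168 with KCl and had no interval without (2.64 ± 0.13, limma adjusted p = 6.49e-06). The region inside Ccdc62 (chr5:123954777-123955994) ranked 18839 and 20295 with KCl, and without KCl it had no interval in 1 list and ranked 100072 in the other (2.56 ± 0.18, limma adjusted p = 3.93e-05).

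Regions near synaptic and guidance genes were among those that rose. A region 46.1 kb from Gria1 (chr11:57376313-57377315) ranked 15604 and 15765 with FHT1015 and KCl and 77524 and 55821 with FHT1015 alone at 30 min (2.07 ± 0.18, n = 2 each, limma adjusted p = 8.71e-05). The other Gria1 region (chr11:56944126-56944920) ranked 64782 and 64246 against 54276 and 94797, and its difference of 0.15 ± 0.24 did not pass. A region inside Robo2 (chr16:74164682-74165240) ranked 49959 and 49224 with KCl and had no interval without (1.42 ± 0.16, limma adjusted p = 0.000316). Some regions of a gene therefore passed and others did not; the difference between them was not tested. The region 448 kb from Epha7 (chr4:28364424-28365122) ranked 42150 and 66909 with KCl and had no interval without (1.32 ± 0.26, limma adjusted p = 0.00481), while its other 2 regions did not pass. Both regions of Epha6, inside the gene, passed at differences of 1.42 and 1.36. Over the whole axon guidance list 15 of 25 DIV7-only regions rose and 0 fell, with a median difference of 0.76, near the 50.7% called higher and the median of 0.70 over all DIV7-only regions, a difference that was not tested.

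In the other lists fewer regions could be counted, and their counts stand against 50.7% called higher among all DIV7-only regions and 15.9% among all regions tested, with no test between them. For synapse and excitability genes 9 of 16 rose and 1 fell (median difference 0.87), the one that fell being nearest to Gabra2. For immature and migrating neurons 4 of 11 rose, for cortical layer factors 3 of 9, for neural progenitors 2 of 5, and 0 fell in each. Both regions inside Sox5, a layer factor, show the range: one (chr6:143902939-143903393) ranked 37190 and 29435 with FHT1015 and KCl and had no interval with FHT1015 alone (2.01 ± 0.20, limma adjusted p = 0.000149), and the other (chr6:144251306-144252167) ranked 35114 and 30798 against 31982 and 31651. All 3 Arid1b regions rose (0.94 to 1.45), Arid1b being a subunit of the BAF complex itself. All 4 regions of the inhibitory neuron list rose (median 1.79), 1 of 5 vascular, 1 of 3 Cajal-Retzius and 0 of 2 microglia and 0 of 2 astrocyte regions did.

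Gpc5, Cdh20 and Dab1 are given as examples of genes with many DIV7-only regions. Their counts stand against 50.7% called higher among all DIV7-only regions and 15.9% among all regions tested, with no test between them. Of the 5 regions of Gpc5, 3 rose with KCl under FHT1015 at 30 min. The one inside the gene (chr14:115178275-115178894) ranked 33959 and 44994 with KCl and had no interval without (1.77 ± 0.19, n = 2 each, limma adjusted p = 0.000232). Of the 6 regions of Cdh20, 3 rose, led by one 867 kb away (chr1:103900277-103900866) that ranked 40644 and 52137 with KCl and had no interval without (1.53 ± 0.20, limma adjusted p = 0.000596). The strongest Cdh20 region (chr1:103498563-103499482) ranked 23236 and 21444 against 29557 and 25401 and did not pass. Of the 5 regions of Dab1, 3 rose, by 0.82 to 0.91.

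The 3 largest falls with KCl under FHT1015 at 30 min were at Rit2, Gabra2 and Eps8l3. The Rit2 region, near a neuronal Ras-like GTPase gene, ranked 72858 and 92622 with KCl, against 26355 and 31851 without (−1.50 ± 0.21, n = 2 each, limma adjusted p = 0.000906). The Gabra2 region, near a GABA-A receptor subunit gene, ranked 88801 in 1 list and had no interval in the other, against 53465 and 44570 without KCl (−1.15). The Eps8l3 region fell by 1.09. These regions were kept by the silenced FHT1015 wells and ranked lower after KCl, the reverse of Fat1 and Fat4.

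**Figure D4:**
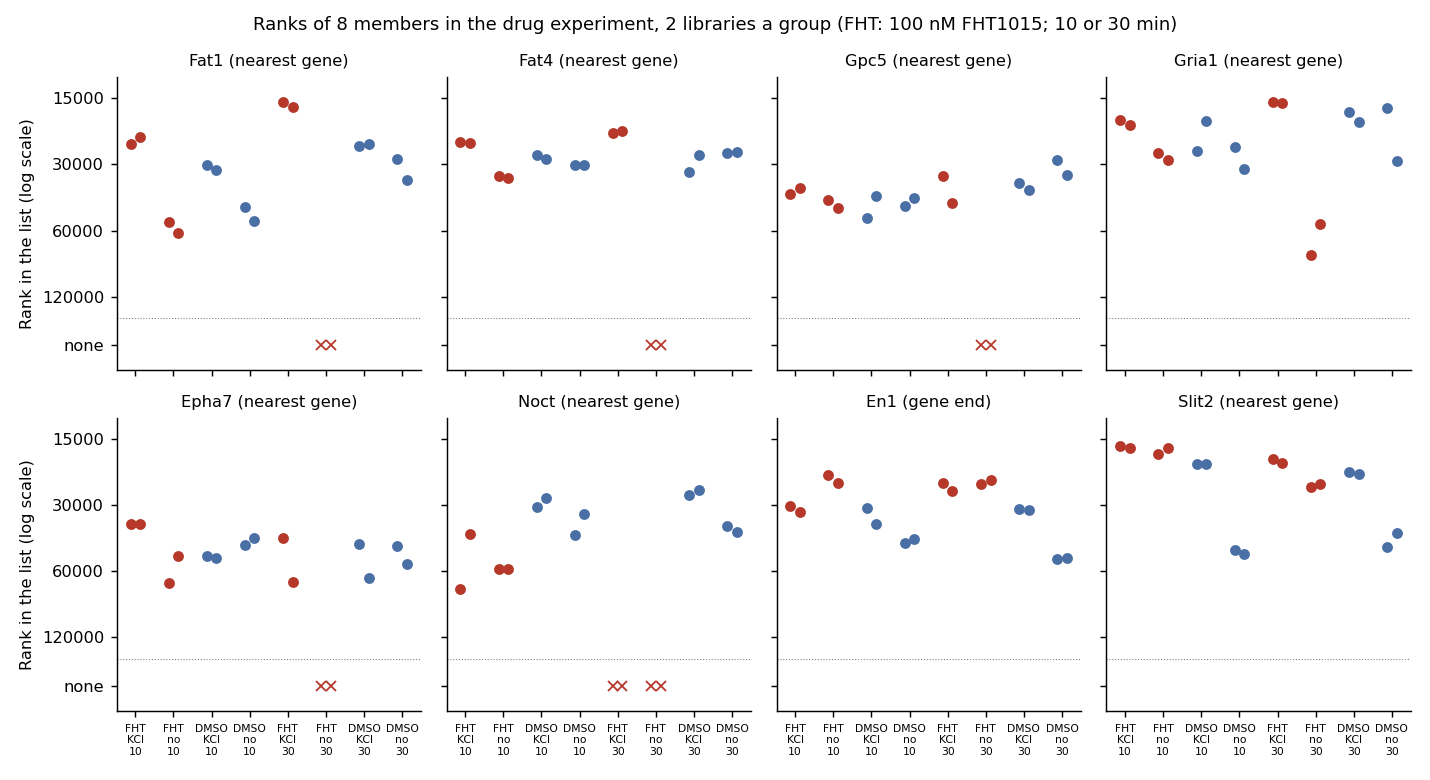
Rank in the list (log scale, strongest at the top) of a chosen DIV7-only region for each of 8 genes in the drug experiment. FHT1015 is red and DMSO blue, with KCl or no KCl, at 10 and 30 min, 2 libraries per group. Crosses mark lists with no interval. Any other DIV7-only regions of these genes are not shown. The regions shown for Fat1, Fat4, Gpc5 and Epha7 have no interval with FHT1015 alone at 30 min. That of Noct has none in any FHT1015 list of 30 min. Those of En1 and Slit2 rank higher with FHT1015 than with DMSO in silenced wells.

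After 10 min the KCl difference under FHT1015 was smaller. Limma called 97 of the 1498 DIV7-only regions higher and 1 lower, where 5.36% of all regions tested were called higher and 2.51% lower (7.87% in either direction). The share called higher was therefore near that of all regions. The median difference was 0.28, against 0.05 for the other held regions. The largest rises were at Tns3 (a focal adhesion gene), Arl4a (a small GTPase) and Fat1. The region inside Tns3 (chr11:8542072-8542705) ranked 39727 and 41450 with KCl, and without KCl it ranked 91990 in 1 list and had no interval in the other (1.45 ± 0.21, n = 2 each, limma adjusted p = 0.0101). The Arl4a region (chr12:39646009-39646864) ranked 36256 and 57642 against 102617 and 136830 (1.35 ± 0.27, limma adjusted p = 0.0227). The Fat1 region ranked 24289 and 22603 against 54845 and 61907 (1.31 ± 0.13, limma adjusted p = 0.00353). In each of the 3, both KCl libraries ranked above both others. The limma call of Fat1 held without any 1 library, that of Tns3 was lost without unstimulated replicate 2 (adjusted p = 0.0519), and that of Arl4a was lost without unstimulated replicate 1 (adjusted p = 0.0666) or 2 (0.115) or KCl replicate 1 (0.094). The count rested on single libraries: it was 12 or 10 without replicate 1 or 2 of the unstimulated wells, 23 or 15 without replicate 1 or 2 of the KCl wells, 0 in a fit of the 4 libraries alone and 1 with list length as a covariate.

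The 1 region that fell at 10 min was the En1 start whose sequence is given above. It ranked 30197 and 32350 with FHT1015 and KCl, against 21940 and 23668 with FHT1015 alone (−0.46 ± 0.12, n = 2 each, limma adjusted p = 0.0487). The call was lost without any 1 of the 4 libraries, at limma adjusted p of 0.0969 to 0.196. With DMSO it ranked 31000 and 36367 after KCl for 10 min and 44484 and 42836 without. At 30 min it ranked 23863 and 25849 with FHT1015 and KCl, 24111 and 22990 with FHT1015 alone, 31286 and 31669 with DMSO and KCl, and 52824 and 52169 with DMSO alone. The En1 start was thus lowest in silenced DMSO wells at both times, with no overlap with the other groups. A region 185 kb from Slit2 (chr5:47795274-47795951) had a like order, with ranks of 17462 and 16388 in FHT1015 wells against 47889 and 50128 in DMSO wells, silenced, at 10 min. The silenced DMSO libraries chose the regions, so these differences have no test here.

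**Figure D5:**
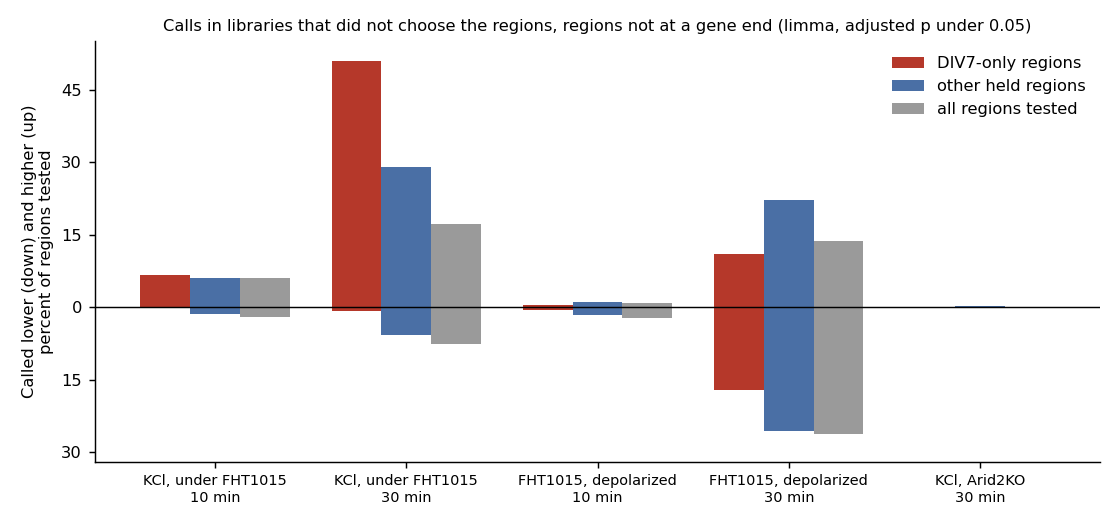
Share of regions called higher (up) or lower (down) by limma at an adjusted p under 0.05 in the comparisons whose libraries the rule did not use, away from gene ends, for the DIV7-only regions, the other held regions and all regions tested. KCl under FHT1015 at 30 min called 50.9% of the DIV7-only regions higher, against 29.0% of the other held regions, which were stronger at DIV7 and not matched for strength.

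KCl without the drug was compared in DMSO wells and in Non-targeting neurons. In DMSO wells at 30 min limma called 89 of the 1498 higher and 175 lower, and at 10 min 11 and 13, with 8.87% and 10.1% of all regions called higher and lower at 30 min (19% in either direction) and 1.86% and 2.14% at 10 min (3.99% in either direction). Nothing is read from those counts, since the unstimulated DMSO libraries chose the regions. The set kept by the Non-targeting libraries gave 208 higher and 310 lower of 3401 at 30 min, at a median difference of −0.10, and 40 and 53 at 10 min. In Non-targeting neurons 2 DIV7-only regions were called higher and 0 lower after KCl for 30 min (0.145% and 0.00384% of all regions, 0.149% in either direction). Another set held the 5697 regions kept by the 4 DMSO libraries and absent from the unstimulated Non-targeting DIV18 lists. There the counts were 2 and 0 of 3798 tested.

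The difference between the 2 KCl effects was tested as an interaction over the 16 drug libraries, a test added after the data were seen. In the set kept by the Non-targeting libraries, which no drug library chose, the KCl effect at 30 min was called higher under FHT1015 than in DMSO in 847 of 3401 regions and lower in 73, at a median of 0.43. Over all 106738 regions 12.9% were called higher and 5.57% lower (18.5% in either direction), at a median of 0.08. Away from gene ends the set had 25.1% called higher and 1.94% lower, and the other held regions 25.5% and 2.87%. The share called higher was thus near that of the other held regions away from gene ends. These sets were not matched for strength in the drug lists. The DIV7-only regions gave 677 higher and 19 lower, a count the rule can favour because 1 of the 4 groups chose them. At 10 min the Non-targeting set gave 99 higher and 10 lower, at a median of 0.24, with 2.25% and 0.824% of all regions called (3.07% in either direction).

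Between FHT1015 and DMSO in depolarized neurons, calls in DIV7-only regions went in both directions, at a lower share than over all regions tested. At 30 min FHT1015 with KCl had an interval in 1458 and 1365 of them, against 1497 and 1498 for DMSO with KCl. Limma called 165 higher and 256 lower, where 14.2% of all regions tested were called higher and 24.9% lower (39.1% in either direction), so the share called was below the background in both directions. The median difference was −0.04. The largest falls were at Noct, Hs6st3 and Isx. The region 248 kb from Noct (chr3:50975656-50976005), the gene of the clock-controlled enzyme nocturnin, had no interval with FHT1015 and ranked 26923 and 25425 with DMSO (−2.35 ± 0.24, n = 2 each, limma adjusted p = 0.000228). The region inside Hs6st3, a heparan sulfate sulfotransferase gene, ranked 146976 and 127522 against 31510 and 26906 (−2.16 ± 0.18, limma adjusted p = 0.000133). The Isx region had no interval with FHT1015 and ranked 28833 and 34137 with DMSO (−2.08). With FHT1015 and no KCl at 30 min, Noct and Isx had no interval, and Hs6st3 had none in 1 list and ranked 113773 in the other.

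The largest rises with FHT1015 in depolarized neurons at 30 min were at Arhgap20, Cxxc4 and Thsd7b. The Arhgap20 region (chr9:51630866-51631428) ranked 31371 and 38613 with FHT1015 and KCl, against 80419 and 73029 with DMSO and KCl (1.14 ± 0.19, n = 2 each, limma adjusted p = 0.0016). The regions of Cxxc4, a Wnt pathway inhibitor gene, and Thsd7b rose by 1.09 and 1.06. The count of 421 called regions was 252 or 229 without replicate 1 or 2 of the DMSO wells, 447 or 291 without replicate 1 or 2 of the FHT1015 wells, and 0 with list length as a covariate.

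At 10 min limma called 5 DIV7-only regions higher and 9 lower with FHT1015 in depolarized neurons, with 0.782% and 2.37% of all regions called (3.15% in either direction). The largest rises were at Zbtb20, Robo2 and Slc39a10 and the largest falls at Tmcc3, Hs6st3 and Igfbpl1. The region inside Zbtb20, a transcription factor gene of the hippocampus and upper cortical layers (chr16:43552396-43552958), ranked 25445 and 24242 with FHT1015, against 44705 and 39198 with DMSO (0.75 ± 0.14, n = 2 each, limma adjusted p = 0.0241). A second region inside Robo2 (chr16:73915262-73916107) ranked 18676 and 19128 against 28486 and 27594 (0.57 ± 0.10, limma adjusted p = 0.0244). The Tmcc3 region (chr10:94621543-94622531) ranked 48746 and 59896 against 21079 and 20999 (−1.36 ± 0.18, limma adjusted p = 0.0096), and at 30 min 64712 and 68838 against 15774 and 17357. The region 0.586 kb from Igfbpl1 ranked 54280 and 68922 against 25942 and 35550 (−1.01 ± 0.21, limma adjusted p = 0.038). In each of these 4 the libraries did not overlap between groups. Without 1 library the limma adjusted p ran from 0.0515 to 0.109 at Zbtb20, 0.0677 to 0.0875 at Robo2 and 0.0547 to 0.172 at Igfbpl1, so each of the 4 libraries was needed for these calls. The call of Tmcc3 was lost without FHT1015 replicate 2 (adjusted p = 0.0517), that of Hs6st3 without replicate 2 of either group (0.0897 for FHT1015, 0.0747 for DMSO), and that of Slc39a10 without DMSO replicate 1 (0.141) or either FHT1015 library (0.0664 and 0.171). The count of 14 was 4 or 6 without replicate 1 or 2 of the DMSO wells and 7 or 2 without replicate 1 or 2 of the FHT1015 wells.

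In Arid2KO neurons, KCl for 30 min left 1 DIV7-only region called higher and 0 lower by limma, where 0.109% and 0.00507% of all regions were called (0.114% in either direction), and 155 passed an unadjusted p of 0.05. The region 13.8 kb from Bmt2 (chr6:13691724-13692372), the gene of a nutrient sensor upstream of mTORC1, ranked 9449 and 8772 with KCl, against 23381 and 23036 without (1.35 ± 0.21, n = 2 each, limma adjusted p = 0.0418). In Non-targeting neurons it ranked 10218 and 9738 with KCl, against 26573 and 36638 without. Both genotypes thus ranked the region higher in both KCl libraries, and the call was lost when any 1 of the 4 Arid2KO libraries was left out, at limma adjusted p of 0.306 to 0.42.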

How the data were processed

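ATAC-seq was measured in 44 libraries in 22 groups of 2, and each library came as 1 list of accessible intervals. Per the submitters' processing notes, the tools were MACS2, Bowtie2, Trim Galore, FastQC, Picard, bedtools and SAMtools, the build was mm10, and no versions are used here. The deposited fold enrichment, a ratio of pileup to local background, and the deposited −log10 p and −log10 q of each interval were made by the authors with MACS2, per the submitters' processing notes. The score column was not used. The files give no read counts, so read depth is unknown; the level of background that the even steps of the fold enrichment imply is given in its place.

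Intervals on the 19 autosomes were ranked by −log10 p within a list, and intervals that overlapped by 1 bp or more were merged. The DIV7-only regions and the gene lists were chosen with earlier results of these data known. A region's rank score was log2(133009/rank) of its best interval, or 0 with no interval or a worse rank, so 0 acts as a floor that limits how large a change can be. Regions with a score above 0 in at least 2 libraries of a fit were tested with limma 3.58.1 (R 4.3.3), with 1 coefficient per group, moderated variances and Benjamini-Hochberg adjustment at 0.05 over all regions tested. KCl under FHT1015 and FHT1015 in depolarized neurons were fitted on 12 drug libraries that did not choose the regions. Tables and figures used Python 3.11.15, numpy 2.4.6, pandas 2.3.3 and matplotlib 3.10.9. The fit was tested on simulated data.

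Regions were assigned to the nearest of 20661 autosomal protein-coding genes of RefSeq (GRCm38.p6) and placed at a gene end (within 1 kb), inside a gene, within 100 kb or farther. The genes named were the 10 with the most DIV7-only regions, those of the 10 highest regions and of the 6 highest at a gene end, list genes with 2 or more regions, and the 3 largest called rises and falls in each test on libraries that did not choose the regions. The regions listed in all other DIV18 libraries, and those described because their sequence is printed, were chosen after their values were seen. Alternatives changed the list length, the absence rule, the ranking, the filter, the fit and the libraries. Some marker genes are not reported here by name.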

Additional observations from a re-analysis of the deposited data

Results flagged for a closer look

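The effect of KCl was compared between FHT1015 and DMSO wells in regions that no drug library chose. Among regions kept by both Non-targeting DIV7 libraries and absent from the unstimulated Non-targeting DIV18 lists, the KCl effect was called higher under FHT1015 than in DMSO in 99 and lower in 10 of 3401 regions at 10 min, and higher in 847 and lower in 73 at 30 min, by limma's interaction test over 16 drug libraries. Over all regions 2.25% were called higher at 10 min and 12.9% at 30 min, and at 30 min the set's share away from gene ends (25.1%) was near that of the other held regions there (25.5%). These sets were not matched for strength. The test was added after the data were seen.

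Of the DIV7-only regions, 691 had an interval in at least 1 of the 18 DIV18 lists that the choice of regions did not use.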

How the results depend on the processing

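The number of DIV7-only regions, 1498, was 518 with lists of 50000 intervals, 2939 with lists of 100000, 7573 when absence meant the top 75000 at DIV18, 807 when all 20 DIV18 lists had to lack an interval, 4049 from the Non-targeting DIV7 libraries alone and 5715 from the DMSO libraries alone. Without 1 library it was 1566 to 2724, the highest without replicate 2 of the DIV18 Non-targeting pair.

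With list length as a covariate, the counts of called DIV7-only regions, both directions together, were as follows: age 0, KCl under FHT1015 at 10 min 1, FHT1015 in depolarized neurons 0 at 10 min and 0 at 30 min, KCl in Arid2KO 0, KCl in DMSO 10 at 10 min (8 higher and 2 lower, the balance turned round) and 169 at 30 min, FHT1015 in unstimulated neurons 0 at 10 min and 48 at 30 min, KCl in Non-targeting neurons 0, and the interaction 0 at 10 min and 410 at 30 min. KCl under FHT1015 at 30 min stayed at 645. The covariate takes a degree of freedom from each fit, which weighs most on the age fit. With the best summit in each region the counts were 246 for KCl under FHT1015 at 10 min, 53 for FHT1015 in depolarized neurons at 10 min, 232 (3 higher, 229 lower) and 623 (52 higher, 571 lower) for KCl in DMSO at 10 and 30 min, 772 for FHT1015 in unstimulated neurons at 10 min, 1 for KCl in Non-targeting neurons and 384 for the interaction at 10 min. Fits of the 4 libraries of a comparison gave 0 and 455 for KCl under FHT1015 at 10 and 30 min, 1 and 269 for FHT1015 in depolarized neurons, and 0 for KCl in Arid2KO. FHT1015 in depolarized neurons at 10 min gave 55 with ranks limited to the top 75000 and 24 with no filter, and in both more were higher than lower. The cause was not tested.

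Without 1 library the counts ran from 86 to 866 for age, 10 to 23 and 591 to 794 for KCl under FHT1015 at 10 and 30 min, 2 to 7 and 229 to 447 for FHT1015 in depolarized neurons, 0 to 0 for KCl in Arid2KO, 5 to 8 and 98 to 188 for KCl in DMSO, 153 to 185 and 1049 to 1113 for FHT1015 in unstimulated neurons, 0 to 0 for KCl in Non-targeting neurons, and 4 to 19 and 499 to 733 for the interaction. The balance turned to more higher than lower for FHT1015 in depolarized neurons at 10 min without replicate 2 of DMSO (6), and for KCl in DMSO at 10 min without unstimulated replicate 2 (7) or depolarized replicate 1 (5) or 2 (7).

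Replicate numbers did not pair the libraries: deviations of same-numbered libraries correlated at −0.0175 to 0.0234 over 11 comparisons. With the replicate block the counts were 8 for FHT1015 in depolarized neurons at 10 min, 7 for KCl in Arid2KO and 23 for the interaction at 10 min, and no other count moved by over 1.5 times. Of 26 calls at named single regions, none changed direction under any alternative run, 19 were lost with list length as a covariate, and 12 of 23 were lost in fits of the 4 libraries alone. Among calls lost with the covariate, the difference was −4.41 against −5.10 at Zfp536, −4.69 against −4.51 at Eea1 and 0.50 against 1.09 at Cxxc4. The 12 calls at 30 min in the drug libraries all held without any 1 library. Unknown read depth, 2 libraries a group and the floor at 0 limit the precision of every change.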
